A study of Mus musculus with 183 samples.

Results

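The mRNAs of the 3 PIM kinases (Pim1, Pim2 and Pim3), the 3 MYC transcription factors (Myc, Mycn and Mycl) and their shared partner Max were followed in mouse embryonic stem cells (mESCs). They were chosen by gene symbol as short-lived growth regulators related to Pim3, and all 7 were found among 53380 counted genes. In the table of relative binding to the RNA decay factors MTR4, SKIV2L and XRN1, 6 of the 7 were among 7240 mRNAs, and Pim2 was not analysed there. The question was whether the XRN1 preference of the Pim3 mRNA was shared by its relatives.

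MYC, MYCN and MYCL are transcription factors that bind DNA only as partners of MAX and that drive cell growth and proliferation. PIM1, PIM2 and PIM3 are serine/threonine kinases that lack a regulatory domain, so their activity follows the amount of protein, and they cooperate with MYC in tumours. In mESCs some members of both families lie downstream of LIF and STAT3, which hold the cells in the undifferentiated state. Cells keep the level of such regulators adjustable by destroying their mRNAs quickly, from the 5′ end through the exonuclease XRN1 or from the 3′ end through the exosome, which is fed by the helicase SKIV2L in the cytoplasm and by MTR4 in the nucleus. AU-rich elements, repeats of ATTTA in the DNA spelling, are the classical mark of unstable mRNAs in the 3′ untranslated region (3′UTR).

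The decay data were 47 RNA-seq libraries from 2 clonal lines grown in serum with LIF. Clone 5F was labelled Rosa26Cre-ERT2/- Skiv2lfl/fl. Clone 7E was labelled Aven-/-, with Rosa26Cre-ERT2/BirA-V6 and with 3xFLAG-Avi tags on both Skiv2l alleles, and the study describes it as also carrying floxed Skiv2l alleles, which the labels of these libraries do not name. Both lines carry the tamoxifen-inducible Cre. They were taken without 4-hydroxytamoxifen (4OHT, day 0) or after 4 days in 0.1 µM 4OHT (day 4). They were then mock-treated with DMSO or treated with actinomycin D, which blocks transcription, for 120, 240 or 360 min. In the study the mock treatment lasted 360 min in fresh medium. The mock libraries, used as time 0, were therefore not taken at the moment the drug was added. Every group held 3 libraries except clone 5F at day 0 and 120 min, which held 2. The replicates were technical, so p-values measure the spread between these libraries only, and with 1 clone per genotype the clone and the genotype cannot be told apart. The binding data came from other mESC lines. The study describes each as carrying FLAG-Avi tags on both alleles of 1 bound protein, with BirA and Cre-ERT2 at Rosa26. Those lines had neither floxed Skiv2l nor the loss of Aven.

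Library totals ran from 24440935 to 34114250 counts. The count of Skiv2l, which includes exons outside the floxed stretch, was not lower at day 4 in the mock libraries of clone 5F (4150, 4136 and 4205 normalized counts at day 0, and 4415, 3825 and 4162 in the libraries labelled day 4). In clone 7E it was 968, 1038 and 903 at day 0 and 406, 389 and 368 at day 4. Aven was at 57, 86 and 58 in clone 7E. Markers of mESCs summed to between 84893 and 91605 normalized counts in the mock libraries of clone 5F and to between 75724 and 90550 in those of clone 7E. Across all genes 6 libraries stood apart: replicate 2 of both clones at day 0 and 240 min, replicate 1 of both at day 4 and 120 min, and replicate 3 of both at day 4 and 360 min. Their mitochondrial share was 0.710% to 0.806% of counts, against 1.09% to 3.99% in the other 41. Myc was lower in all 6 than the mean of the other libraries of the same group (ratio 0.459 to 0.614), as were Pim1 (0.778 to 0.857), Pim2 (0.713 to 0.920) and Mycn (0.609 to 0.934), whereas Max was within 0.962 to 1.04 of it. Decay results are therefore also given without these 6 libraries where they differed.

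The 3′UTRs of the members differed in their AU-rich sequence. The richest 30-base windows around ATTTA (in capitals) are shown as DNA, 5′ to 3′ on the sense strand of GRCm38, to set the stable and unstable members side by side.
Pim3: tggggctATTTAttgtttaATTTAtttgct
Pim1: ttaatgtATTTATTTATTTATTTAtttggt
Myc: ttaacagatttgtATTTAattgttttttta
Mycn: tcaaaatgtatatATTTAgtgctgcacctt
Mycl: gtgcATTTAcctgaaattttgtATTTAgtt
Pim2: ccctgcctggattATTTAaaaagccatgtg
Max: atgatgttttgatATTTAtttcctgctact

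The windows lie, within the annotated 3′UTRs, at chr15:88865273-88865302 on the plus strand for Pim3, chr17:29495690-29495719 plus for Pim1, chr15:61990134-61990163 plus for Myc and chr12:12936149-12936178 minus for Mycn. Those of Mycl, Pim2 and Max lie at chr4:123002383-123002412 plus, chrX:7883370-7883399 plus and chr12:76937764-76937793 minus. The motifs searched in the sense strand were ATTTA and the longer TTATTTATT, which contains it, and overlapping matches were counted. The whole 3′UTR of Pim3 (964 nt) held 5 ATTTA, or 5.19 per kb, above 93.1% of 20830 genes. Pim1 also held 5 in 1365 nt (3.66 per kb), 4 of them chained in the window shown, and was the only member with TTATTTATT (3 matches). Myc held 2 in 466 nt (4.29 per kb) and Pim2 2 in 915 nt (2.19 per kb). Mycn, Mycl and Max held 1, 2 and 1, at 1.10, 1.02 and 0.770 per kb, all below the median of 1.26 per kb over all genes. ATTTA was present in 65.7% of all 3′UTRs and TTATTTATT in 7.72%, so a match alone is no rarity. The Pim3 transcript was also rich in G and C (61.9%, above 98.3% of genes).

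The XRN1 preference of Pim3 was shared by Max, in part by Mycl, and not by Pim1 or Mycn. It was not seen for Myc either, on a transcript that holds the coding sequence only. CRAC, which maps by ultraviolet crosslinking the RNA bound to a tagged protein, gave each mRNA a share for MTR4, SKIV2L and XRN1 that together sum to 1. These are the authors' values from pooled replicates, so they carry no replicate error and differences between them were not tested. The pooled counts of the 3 factors were first scaled to the same total. A share is therefore relative to the library of each factor and does not give occupancy. Pim3 had a share of 0.722 on XRN1, 0.171 on MTR4 and 0.107 on SKIV2L, and its XRN1 share was above that of 98.9% of mRNAs. Max, the obligate partner of the MYC proteins, had 0.602 on XRN1 (93.6% of mRNAs lower), 0.233 on SKIV2L and 0.166 on MTR4. Mycl, the least abundant MYC gene here, had 0.474 on XRN1 (78.5% lower), 0.353 on MTR4 and 0.173 on SKIV2L, at 3.11 RPKM in the authors' RNA-seq of the tagged lines, a level above only 6.28% of mRNAs.

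The remaining 3 had XRN1 shares near the median of 0.337. Mycn, the most abundant MYC gene in these cells, had nearly equal shares, with 0.334 on XRN1, 0.334 on MTR4 and 0.332 on SKIV2L. Pim1 was nearly as even, with 0.320 on XRN1, 0.320 on MTR4 and 0.360 on SKIV2L. Myc had its largest share on SKIV2L (0.474, above 85.5% of mRNAs), with 0.345 on XRN1 and 0.182 on MTR4. The transcript used for Myc in the table holds the coding sequence only, and 60 of the 7240 had no 3′UTR. Those 60 had a median SKIV2L share of 0.318 against 0.267 for the rest, and the Myc share was above 66.7% of the 60.

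An XRN1 share above 0.5 was found for 2 of 6 members, Pim3 and Max, against 17.3% of all mRNAs. Pim3 posed the question and is counted in this and the next number, so among its relatives only Max was above 0.5. XRN1 was the largest of the 3 shares for 4 of 6 (Pim3, Max, Mycl and, by a margin in the third decimal, Mycn), against 38.1%. After the authors' further scaling to RNA level, Max stood at 0.682 and Pim3 at 0.653, Mycl at 0.474, Mycn at 0.361, Pim1 at 0.360 and Myc at 0.345, so the same 2 were above 0.5 and the order of Max and Pim3 was exchanged. Binding to AVEN, a protein whose ratio uses the same denominator, was highest for Myc (0.354) and lowest for Max (0.145), with Pim3 at 0.229, Mycn at 0.253, Mycl at 0.206 and Pim1 at 0.171, against a median of 0.295.

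**Figure D1:**
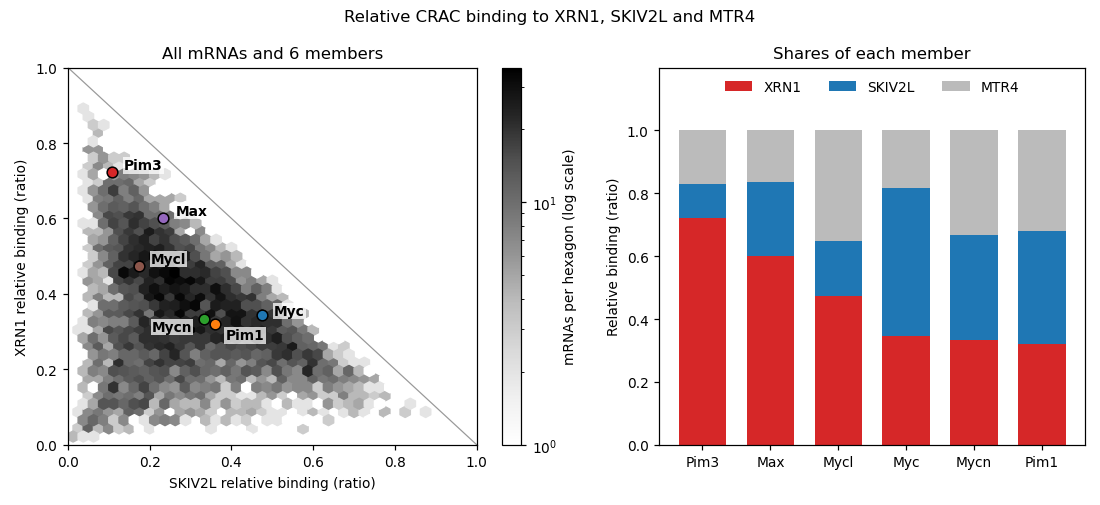
Relative CRAC binding (ratio, summing to 1 over XRN1, SKIV2L and MTR4) of 7240 mRNAs as hexagons shaded by number, with the 6 members as points (left), and as stacked bars of each member's shares (right). Pim3 (0.722) and Max (0.602) lie high on the XRN1 axis, Myc lies to the right on SKIV2L (0.474), and Mycn and Pim1 lie near the middle.

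The 5 mRNAs nearest to Pim3 over the 3 shares were B4galt3, a galactosyltransferase of the Golgi, the kinase Map4k3, the G protein subunit Gna12, the kinase Dyrk1a, and Stk40, at distances of 0.00519 to 0.00997. Max was the 479th nearest (0.174), Mycl the 1449th (0.315), Mycn the 3288th (0.477) and Pim1 the 3538th (0.498). Myc, measured on its coding sequence only, was the 3944th (0.526). The kinase Pim1 was thus farther from Pim3 in binding than the transcription factors Max, Mycl and Mycn.

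After transcription was blocked, Pim3 and Myc were lost fastest of the 7. In clone 5F at day 0, Pim3 stood at 4007, 4220 and 4116 normalized counts in the mock libraries, 390 and 419 at 120 min, 119, 131 and 97 at 240 min, and 69, 74 and 67 at 360 min. No library of any time point overlapped with one of another. The mean left was 9.83% at 120 min and 1.71% at 360 min, against medians of 59.3% and 40.0% over 11011 genes, and at 120 min 1.34% of genes were lost to the same extent or more. Clone 7E gave 3308, 3669 and 3427 in mock, 304, 289 and 277 at 120 min, 122, 113 and 86 at 240 min, and 60, 68 and 58 at 360 min. The share left there was 8.36% at 120 min and 1.79% at 360 min.

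Myc was at 1757, 2016 and 1937 in mock, 222 and 256 at 120 min, 96, 47 and 84 at 240 min, and 42, 35 and 40 at 360 min in clone 5F at day 0. Its lowest value at 240 min, 47, came from a library that stood apart. In clone 7E it went from 1464, 1447 and 1394 in mock to 177, 222 and 229, then 86, 44 and 73, and then 42, 32 and 27. The means left at 120 min were 12.6% in clone 5F and 14.6% in clone 7E, and 2.04% and 2.34% at 360 min.

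Mycn and Pim1 fell more slowly. In clone 5F at day 0 Mycn was at 6894, 7431 and 6941 in mock, 2032 and 2387 at 120 min, 1366, 1047 and 1036 at 240 min, and 414, 404 and 339 at 360 min. Pim1 was at 4044, 4393 and 4209, then 1103 and 1125, then 525, 402 and 473, and at last 307, 298 and 238. Neither gene had overlapping time points. At 360 min 5.44% of Mycn and 6.67% of Pim1 were left in clone 5F, and 8.75% and 10.6% in clone 7E. Of the 3362 exonic nt of Pim1, 488 are shared with the antisense gene Gm26885, whose reads cannot be separated without strand, which the library kit does not keep; Gm26885 had 4 to 39 counts in any library, against 533 to 5472 for Pim1.

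Max, Mycl and Pim2 outlasted the others. Max was at 2665, 2713 and 2629 in mock, 1211 and 1247 at 120 min, 816, 814 and 877 at 240 min, and 693, 662 and 656 at 360 min in clone 5F, so 25.1% was left at the end. Mycl was at 303, 352 and 344 in mock, 148 and 142 at 120 min, 149, 190 and 146 at 240 min, and 140, 150 and 138 at 360 min. It lost more than 50% in the first interval and its later time points overlapped. In clone 7E Mycl also fell at first, from 401, 468 and 506 to 157, 160 and 146, and was then at 164, 182 and 168 and at 188, 187 and 188. Pim2 was at 989, 1164 and 1047, then 648 and 712, then 710, 557 and 612, and then 505, 526 and 403, which left 44.8%, close to the median gene.

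**Figure D2:**
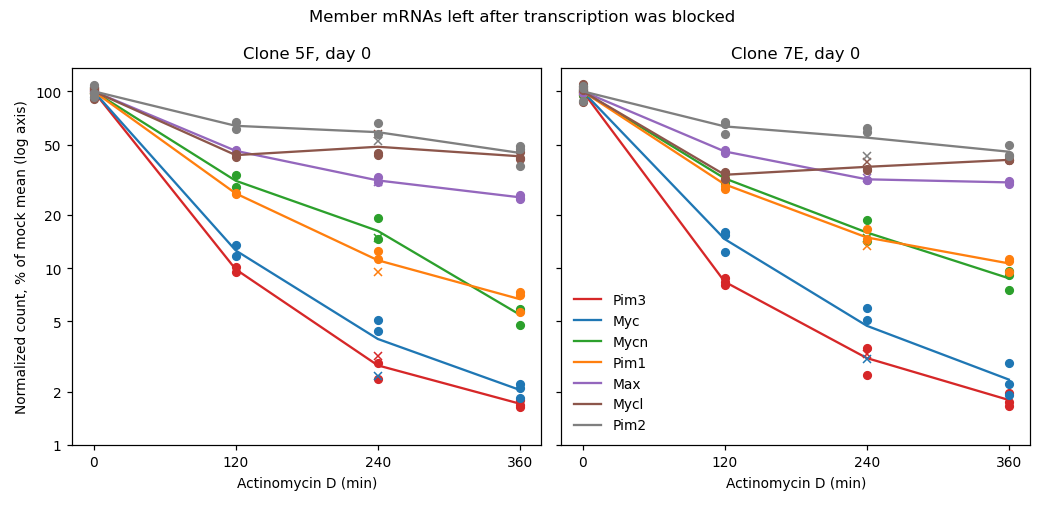
Normalized count of each member as a percent of its mock mean (log axis) against minutes of actinomycin D at day 0 in clone 5F (left) and clone 7E (right); points are libraries, crosses the libraries that stood apart, and lines join group means. Pim3 and Myc end at 1.71% and 2.04% in clone 5F, Mycn and Pim1 at 5.44% and 6.67%, and Max, Mycl and Pim2 above 25%.

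A straight line through log counts and time (the way the study fits half-lives) gave in clone 5F at day 0 half-lives of 61.1 ± 5.9 min for Pim3, 64.3 ± 5.7 min for Myc, 88.0 ± 3.6 min for Mycn, 91.5 ± 6.4 min for Pim1, 181 ± 16 min for Max, 326 ± 41 min for Pim2 and 326 ± 78 min for Mycl (± SE of the fit, n = 11 libraries). In clone 7E (n = 12) they were 63.9 ± 7.0, 67.2 ± 5.6, 104 ± 6 and 112 ± 10 min for Pim3, Myc, Mycn and Pim1, and 212 ± 29, 333 ± 49 and 326 ± 118 min for Max, Pim2 and Mycl. The neighbours Pim3 and Myc, Mycn and Pim1, and Pim2 and Mycl differed by less than the larger of their SEs in both clones, and the same 3 pairs are tested below on ratios. Mycl was described least well by a line (r squared 0.658 in clone 5F, against 0.922 for Pim3). Loss of Pim3 was faster at first than later: between successive means the half-life of Pim3 in clone 5F was 35.9 min over the first 120 min, 66.5 min over the second interval and 166 min over the third. Without the mock libraries, the half-lives of the 3 fastest members in clone 5F were 93.6 ± 8.0 min for Mycn, 94.96 ± 13.7 min for Myc and 99.0 ± 12.4 min for Pim3, so the place of Pim3 and Myc ahead of Mycn there rests on the first interval. In clone 7E they were 91.8 ± 10.8 min for Myc, 109 ± 10 min for Pim3 and 128 ± 9 min for Mycn. From the first 120 min alone the order was Pim3 (35.9 min), Myc (40.2 min), Pim1 (62.6 min), Mycn (71.2 min), Mycl (101 min), Max (107 min) and Pim2 (186 min).

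All 7 fell over time by the quasi-likelihood test of edgeR (p-values adjusted after Benjamini and Hochberg), in both clones. So did 91.3% of genes in clone 5F and 93.8% in clone 7E, so the call itself says little and the slope is what separates the members. In clone 5F the slopes were -1.01 log2 per h for Pim3 (SE 0.08), -0.96 for Myc (SE 0.07), -0.68 for Mycn (SE 0.03), -0.66 for Pim1 (SE 0.04), -0.33 for Max (SE 0.02), -0.19 for Mycl (SE 0.04) and -0.18 for Pim2 (SE 0.02), where the median of all genes was -0.21. In clone 7E they were -0.98, -0.92, -0.58, -0.54, -0.28, -0.20 and -0.18 in the same order, against a median of -0.22. Scaled to the typical mRNA without spike-ins, Pim2 and Mycl were at slopes of 0.03 each in clone 5F and no longer fell by the test, which on this scale called 33.9% of genes as falling in clone 5F and 32.2% in clone 7E.

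A ratio of 2 members within a library does not depend on scaling or depth. Of 42 such tests (21 pairs in each clone at day 0), 36 changed over time by a two-sided permutation test of the slope with Benjamini-Hochberg adjustment over all 42, with 18 in each clone. The pairs reuse the same 7 genes, and the share of other gene pairs that would pass was not determined. Pim3 against Max fell by 0.65 log2 per h in clone 5F (p = 3e-05) and by 0.66 in clone 7E (p = 1e-05, the smallest that 100000 resamples give). This log2 ratio was 0.62 in mock and -3.25 at 360 min in clone 5F. Pim1 against Pim3 rose by 0.33 log2 per h in clone 5F (p = 0.00064, by permutation) and by 0.41 in clone 7E (p = 2e-05). Their counts were nearly equal in mock (log2 ratio 0.03) and 1.99 apart at 360 min in clone 5F. Within the kinases, Pim2 gained on Pim3 by 0.80 log2 per h in clone 5F, and within the MYC genes Myc lost on Mycn by 0.26 (permutation p = 0.013).

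The pairs that did not pass with all libraries were the same 3 in both clones. Pim3 against Myc had slopes of -0.05 (permutation p = 0.37) and -0.04 log2 per h (p = 0.45) in clones 5F and 7E. Pim1 against Mycn had 0.03 (p = 0.58) and 0.04 (p = 0.049, adjusted p = 0.056, by permutation). Without the 6 libraries that stood apart this pair passed in clone 7E, at 0.05 (adjusted p = 0.038, by permutation), and no other call changed. Without the mock libraries 13 of 21 pairs passed in clone 5F and 18 in clone 7E, and neither Pim3 nor Myc was then told apart from Mycn in clone 5F. Pim2 against Mycl had 0.00 in both (p = 0.99 and 0.95 by permutation). Thus no trend over time told Pim3 from Myc, which lay farthest from it in binding, measured on the Myc coding sequence only. Pim3 and Max, both with an XRN1 share above 0.5, were told apart in both clones. The test of a straight trend cannot show an early difference that later narrows. At 120 min 9.49% and 10.2% of Pim3 were left in clone 5F, against 11.7% and 13.5% of Myc. In clone 7E 7.98% to 8.77% of Pim3 were left, against 12.3% to 15.9% of Myc. This early difference was not tested.

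**Figure D3:**
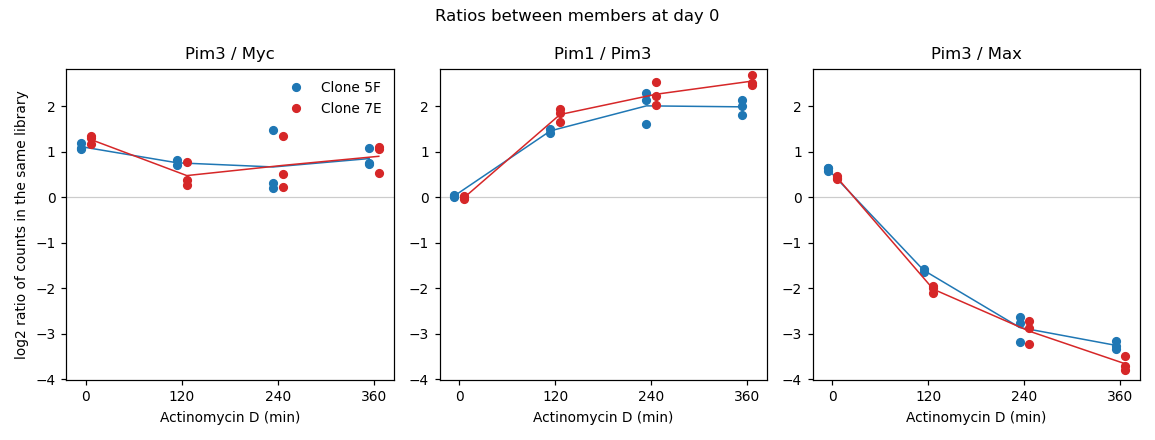
Log2 ratio of the counts of a pair of members in the same library against minutes of actinomycin D at day 0, with clone 5F in blue and clone 7E in red; points are libraries and lines join group means. Pim3 over Myc is lower at 120 min than in mock and has no trend that passed the test (slope -0.05 log2 per h in clone 5F). Pim1 over Pim3 rises (0.33) and Pim3 over Max falls (-0.65).

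Both measures were at hand for 7214 mRNAs, with shares and slopes from different lines. The Spearman correlation between the decay slope in clone 5F and the XRN1 share was -0.16. That with the SKIV2L share was 0.39 and that with the MTR4 share -0.23, given as a description across genes that are not independent. Of the 62 mRNAs lost as fast as Myc or faster in clone 5F, 2 of them Pim3 and Myc, XRN1 was the largest share for 17 (27.4%, against 38.1% of all) and exceeded 0.5 for 10 (16.1%, against 17.3%). Their XRN1 shares ran from 0.0414 to 0.762 with a median of 0.279. Replication-dependent histone genes made up 34 of the 62, with XRN1 the largest share for 1 and above 0.5 for 0. Of the 28 others, Pim3 and Myc included, XRN1 was the largest for 16 (57.1%, against 38.4% of the mRNAs that are no such histone genes) and above 0.5 for 10 (35.7%, against 17.4%). In clone 7E there were 63 such mRNAs, 43 of them histone genes. Of the 20 others there, XRN1 was the largest for 9 (45.0%) and above 0.5 for 5 (25.0%). This split was chosen after the values were seen and was not tested.

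The 4OHT treatment was not followed by a change in decay of any member that passed the test. In clone 5F 0.199% of 17108 genes changed their slope and in clone 7E 0.911% of 16791, by the quasi-likelihood test of edgeR (p-values adjusted after Benjamini and Hochberg), and 0 of 7 members were among them in either. In clone 5F the differences (day 4 minus day 0, log2 per h) were -0.02 for Pim3 (SE 0.11), -0.01 for Myc (SE 0.10), -0.07 for Mycn (SE 0.04), 0.00 for Pim1 (SE 0.05), 0.02 for Max (SE 0.04), 0.02 for Mycl (SE 0.06) and -0.04 for Pim2 (SE 0.03). In clone 7E they were between -0.06 (Mycn) and 0.06 (Myc), with SEs of 0.04 to 0.12. The half-lives of Pim3 and Myc at day 4 were 61.1 ± 6.5 and 64.3 ± 6.6 min in clone 5F and 66.9 ± 8.5 and 71.5 ± 8.8 min in clone 7E (n = 12 libraries).

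Pim3 in clone 5F at day 4 was at 344, 380 and 373 at 120 min and at 67, 82 and 61 at 360 min, so its values at 360 min overlapped with those of day 0. Myc at day 4 was at 150, 240 and 249 at 120 min and at 36, 56 and 28 at 360 min, with the lowest value of each from a library that stood apart. With each time point set against the mock on its own, a form of the test chosen after the data were seen, no member changed either. At 120, 240 and 360 min this form called 0.358%, 0.62% and 0.631% of 17901 genes in clone 5F and 1.39%, 3.27% and 5.32% of 17417 in clone 7E. The smallest adjusted p-values by edgeR were 0.085 for Mycl at 120 min in clone 7E (0.56 log2 more left) and 0.10 for Mycn at 240 min in clone 7E (0.43 log2 less left). No member passed the test of whether the effect of 4OHT on decay differed between the clones. By edgeR this test called 0.0% of 17893 genes (0 genes, against 443 at an unadjusted p under 0.05 and 4 by DESeq2). With libraries paired by replicate number within day and time it called 2.74%, none a member, with Pim3 at 0.06 log2 per h (SE 0.03, adjusted p = 0.28).

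**Figure D4:**
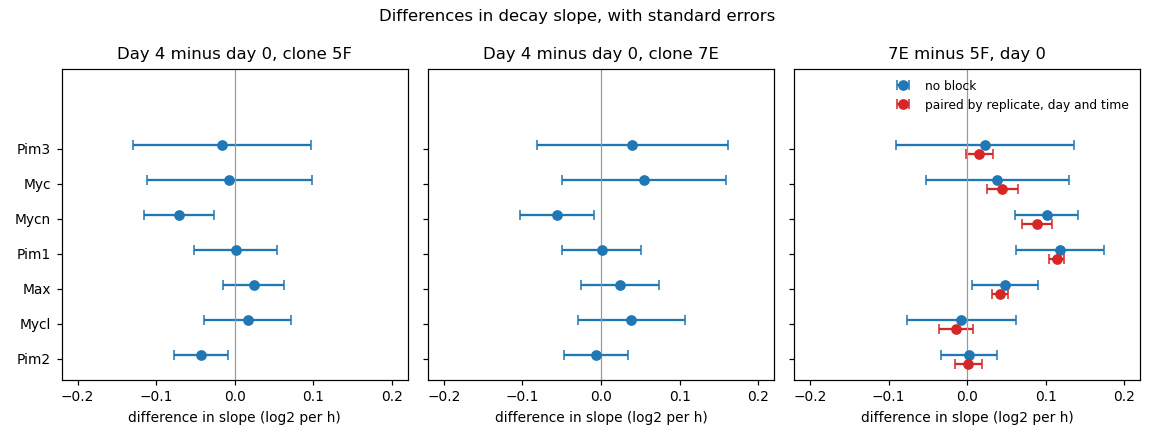
Difference in decay slope (log2 per h; points with standard errors) for the 7 members: day 4 minus day 0 in clone 5F (left) and clone 7E (middle), and clone 7E minus clone 5F at day 0 (right), where red points are from the paired fit. No member passed the test in the first 2 panels, and Pim1, Mycn and Max lie to the right of 0 in the paired fit, at 0.11, 0.09 and 0.04.

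Between the clones at day 0, Pim1, Mycn and Max were lost more slowly in clone 7E when libraries of the same replicate number, day and time were paired. Unpaired, edgeR's test called 0.0412% of 16986 genes and no member. Same-numbered libraries of the clones deviated together in 23 of 23 pairs, and the paired fit called 10.4% of genes, 6.72% of all being slower and 3.71% faster in clone 7E, with 3 of the 7 members among the slower. Pim1 differed by 0.11 log2 per h (SE 0.01, adjusted p = 5.52e-08), Mycn by 0.09 (SE 0.02, adjusted p = 0.0027) and Max by 0.04 (SE 0.01, adjusted p = 0.012) in this edgeR fit. Myc differed by 0.04 (SE 0.02, adjusted p = 0.16), Pim3 by 0.02 (SE 0.02, adjusted p = 0.66), Pim2 by 0.00 and Mycl by -0.01.

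Pim1 differed at every time point. At 120 min 26.2% and 26.7% of its mock level was left in clone 5F and 28.0%, 32.1% and 29.2% in clone 7E, and at 240 min 12.5%, 9.53% and 11.2% against 16.6%, 13.4% and 14.7%, with no overlap. Mycn and Max overlapped at both of these times. At 360 min Pim1 was at 307, 298 and 238 normalized counts in clone 5F and 390, 379 and 329 in clone 7E, although mock levels were higher in clone 5F. Mycn was at 414, 404 and 339 against 569, 540 and 443, and Max at 693, 662 and 656 against 786, 768 and 801, with no overlap for any of the 3. Without pairing, and with time points as levels, the share left at 360 min was higher in clone 7E by 0.67 log2 for Pim1 (adjusted p = 0.0113), 0.68 for Mycn (adjusted p = 0.0272) and 0.28 for Max (adjusted p = 0.0321) by edgeR, a test that called 1.91% of 17766 genes. Both fits were chosen after the data were seen.

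Levels per length in mock-treated cells ordered the members as Mycn, Pim3, Pim1, Max, Myc, Pim2 and Mycl in clone 5F at day 0. Mycn was at 74.1 to 80.4 RPKM, Pim3 at 58.6 to 62.0, Pim1 at 42.7 to 46.6, Max at 25.7 to 26.9, Myc at 23.0 to 26.4, Pim2 at 12.6 to 14.8 and Mycl at 2.66 to 3.11 (3 libraries each). Max and Myc overlapped and the other neighbours did not. In clone 7E the order of the first 5 was the same (58.7 to 66.6, 47.2 to 52.6, 34.7 to 36.8, 24.2 to 25.5 and 17.7 to 18.7 RPKM), and Mycl (3.44 to 4.33) overlapped with Pim2 (2.94 to 3.61).

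Pim2, a kinase prominent in lymphocytes, differed most between the clones, with 989, 1164 and 1047 normalized counts in clone 5F and 237, 290 and 284 in clone 7E at day 0. By edgeR 39.7% of 16299 genes differed between the clones, 20.0% higher and 19.7% lower in clone 7E, and 6 of the 7 members were among them. Pim2 fell by 1.98 on the log2 scale in clone 7E relative to clone 5F (SE 0.08, adjusted p = 2.91e-15), Myc by 0.41 (SE 0.05), Pim1 by 0.29, Mycn by 0.26 and Pim3 by 0.25, while Mycl was higher by 0.46 (SE 0.09) and Max differed by -0.05 (SE 0.04, adjusted p = 0.34). The 5 primitive endoderm markers, of another cell type that such cultures can hold, were all lower in clone 7E (sums of 246 to 273 normalized counts against 2581 to 2689), the fibroblast markers were at 66.5 to 81.1 against 161 to 189, and the neural and mesoderm markers at 1864 to 2000 against 851 to 892. Within the last list, means of Pax6 (1470 against 704) and Sox1 (415 against 90.2) were higher in clone 7E. Those of T (19.7 against 32.6) and Mixl1 (30.6 against 41.5) were lower. None of these markers was at 0 in all libraries, and their part in the differences was not tested. In bulk RNA, fewer cells of a type and less RNA per cell cannot be told apart.

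After 4OHT, Pim1 and Mycn were higher and Mycl lower in both clones. In clone 5F 24.5% of 16349 genes changed in mock-treated cells by edgeR, 12.8% up and 11.6% down, and in clone 7E 40.1% of 16333, 20.7% up and 19.4% down. Pim1 went from 4044, 4393 and 4209 normalized counts at day 0 to 5452, 5134 and 5384 in the libraries labelled day 4 of clone 5F, with no overlap. It rose by 0.34 log2 in clone 5F (SE 0.05, adjusted p = 1.89e-05) and 0.21 in clone 7E (SE 0.05, adjusted p = 0.0013), where it went from 3362, 3553 and 3430 to 4114, 3898 and 3939. Mycn rose by 0.19 in clone 5F (SE 0.05, adjusted p = 0.0067) and 0.37 in clone 7E (SE 0.05, adjusted p = 2.35e-06), from 5820, 6309 and 5599 to 7593, 7381 and 7918 there. Mycl fell by 0.29 log2 in clone 5F (SE 0.09, adjusted p = 0.021) and by 0.83 in clone 7E (SE 0.10, adjusted p = 6.88e-07), where it went from 401, 468 and 506 to 228, 247 and 298.

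Pim3 passed the test in clone 5F, where it rose by 0.16 log2 (SE 0.05, adjusted p = 0.017, edgeR), from 4007, 4220 and 4116 to 4681, 4307 and 4844 normalized counts. In clone 7E it was at 3308, 3669 and 3427 and then at 3432, 3281 and 3493, a difference of -0.03 (SE 0.05). Myc (0.11 and -0.14 log2 in clones 5F and 7E), Pim2 (0.08 and 0.14) and Max (-0.05 and -0.08) passed in neither. The smaller calls were fragile: those of Pim3 and Mycn in clone 5F were lost without replicate 1 or replicate 3, that of Mycl in clone 5F without any one replicate, and that of Pim1 in clone 7E without replicate 1 (adjusted p = 0.098, edgeR). Scaled to each library's own spike-ins, the typical gene fell by 1.1 log2 in clone 7E, 90.1% of genes were called lower, and Mycn and Pim1 fell with them, by 0.73 and 0.89. The spike-in share of the mock libraries there was 0.310% to 0.320% at day 0 and 0.640% to 0.659% at day 4, against 0.275% to 0.309% in clone 5F over both days.

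The response of Mycl differed between the clones, by -0.54 log2 (clone 7E minus clone 5F, SE 0.14, adjusted p = 0.015) in edgeR's test of the difference, which called 11.9% of 17209 genes. That call was lost without replicate 1 or 2. In the fit paired by replicate number within day and time, which called 24.1%, Mycl remained at -0.54 (adjusted p = 1.03e-04), and Myc (-0.25, adjusted p = 7.9e-04), Pim3 (-0.19, adjusted p = 2.41e-04), Pim1 (-0.13, adjusted p = 0.011) and Mycn (0.18, adjusted p = 7.59e-05) also passed, whereas Pim2 (0.06) and Max (-0.02) did not. Beside these levels, the summed mESC markers of clone 7E went from 87328 to 90550 normalized counts at day 0 to 75724 to 77406 at day 4, and its fibroblast markers from 66.5 to 81.1 to 159 to 200. Of the mESC markers, Sox2 did not fall (means of 10740 and 11071), whereas the others did. The part of these markers was not tested.

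**Figure D5:**
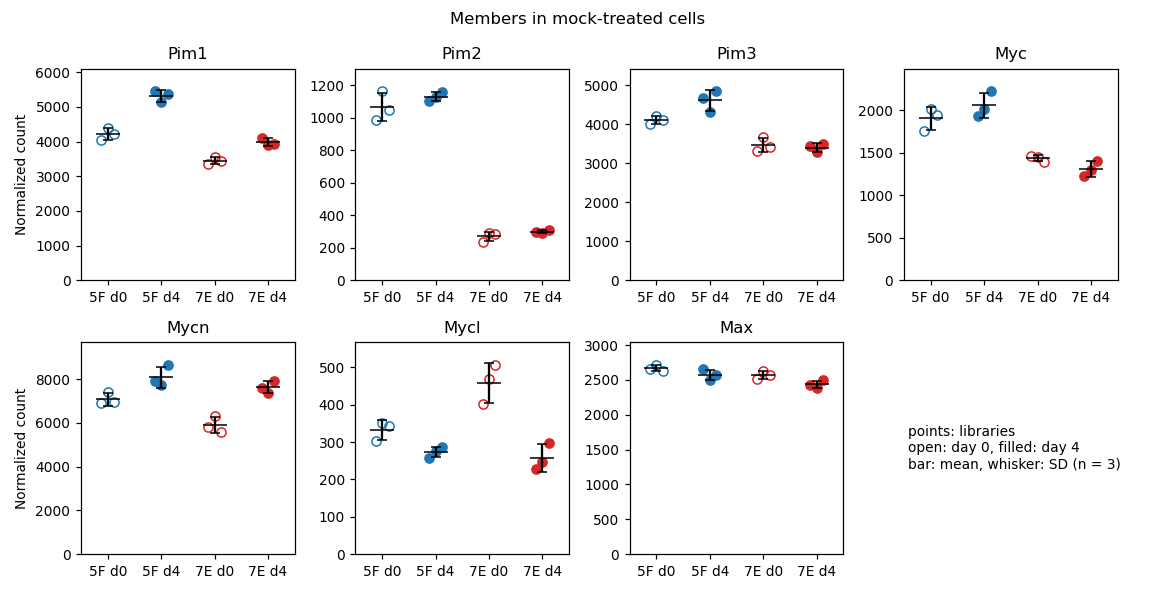
Normalized counts of the 7 members in mock-treated cells, 3 libraries per group (open points day 0, filled points day 4; blue clone 5F, red clone 7E; bar and whisker, mean and SD). Pim2 is at 989 to 1164 in clone 5F and 237 to 290 in clone 7E at day 0, Pim1 and Mycn are higher at day 4 in both clones, and Mycl is lower.

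The genes around MYC and PIM set the members' decay in context. Of the 10 other genes of the MYC network, all 10 fell with actinomycin D in clone 5F at a median of -0.23 log2 per h, near the median of -0.21 over all genes. The fastest was Mxd1, a MYC antagonist that also pairs with MAX, at -0.91. The 8 genes that control MYC protein had a median of -0.22, led by the ubiquitin ligase subunit Fbxw7 (-0.61), and the 15 MYC target genes of -0.15, led by the transferrin receptor Tfrc (-0.30). The LIF-STAT3 genes, at a median of -0.22, were led by Socs3, a feedback inhibitor of the pathway, at -0.95, next to the slopes of Pim3 and Myc. The 9 PIM substrates had a median of -0.28, led by the cell cycle inhibitor Cdkn1a (-0.85). The 14 of 17 classical short-lived mRNAs that passed the filter on low counts all fell, at a median of -0.75, led by the phosphatase Dusp1 at -1.15, and the median of the 7 members was -0.66.

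In the binding table the genes around the members also differed in the factor that held the largest share. Among the LIF-STAT3 genes XRN1 was the largest share for 6 of 8, against 38.1% of all mRNAs, and above 0.5 for 6, against 17.3%. Socs3 was at 0.791, Klf4 at 0.665, Lifr at 0.628 and Stat3 at 0.588. Of the 10 genes of the MYC network 5 were analysed there, and XRN1 was the largest share for 4 of the 5, again against 38.1%. Mlxip was at 0.581, Mnt, which represses in complex with MAX, at 0.580, and Zbtb17 at 0.527. Mga was called by a margin in the third decimal, at 0.367 on XRN1 and 0.366 on MTR4. For the MYC target genes SKIV2L was the largest share in 10 of 15, against 26.5% of all mRNAs, with the nucleolar proteins Fbl at 0.727 and Nop56 at 0.646. The short-lived mRNAs had MTR4 as the largest share for 9 of 15, against 35.4% of all, with Egr1 at 0.699 and Dusp1 at 0.657, and XRN1 for 6. Only 1 of these 15, Klf2 at 0.502, had an XRN1 share above 0.5.

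In mock-treated cells the lists moved in both directions. Of the 17 short-lived mRNAs, 8 were higher and 2 lower at day 4 in clone 5F and 10 and 2 in clone 7E, by edgeR, against 12.8% and 11.6%, and 20.7% and 19.4%, of all genes. The largest change was that of Jun (0.64 log2 in clone 5F and 1.36 in clone 7E). Of the 10 proteins that bind AU-rich or Myc mRNA, 5 were higher and 0 lower in each clone. Of the 15 MYC target genes 4 were higher and 2 lower in clone 5F, led by Nop56 (0.65), and 3 and 3 in clone 7E, where the cyclin Ccnd2 fell by 1.23. The medians of these 15 were -0.02 and 0.00 log2, close to those of all genes.

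Over the means of the 16 groups, the genes most like Pim3 by Pearson's correlation of log2 counts were Zfp142 (0.999), Emsy (0.999), Mta2 (0.999), Marf1 (0.998) and Zc3h8 (0.998), and Myc was the 17th of 10592 genes (0.997). Those most like Myc began with Golga2 (0.998), Xrcc2, Chd6, Tmem131l and Emsy, and Pim3 was the 14th. Since all genes share the time course, 66.4% of genes were above 0.9 with Pim3. Max was 87th (0.994), Pim1 1501st (0.980), Mycn 2818th (0.969), Mycl 8635th (0.819) and Pim2 10321st (0.477) in likeness to Pim3.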

How the data were processed

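The deposited half-life counts are whole numbers of reads per gene: the authors aligned reads of 50 nt from ribosomal-RNA-depleted libraries (TruSeq v2, a kit that does not mark strand; the strand setting of the counting is not given in the sources used here) with STAR 2.5.0a to GRCm38 (mm10; Gencode M16) with ERCC spike-ins added, and kept single alignments. The relative binding ratio for MTR4, SKIV2L, XRN1 and AVEN, the RPKM of the tagged lines and a score of binding scaled to RNA level were deposited by the authors from pooled CRAC replicates. The authors' half-lives, fold changes and adjusted p-values were not used; 0 sample columns were left out.

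Here counts were scaled in the manner of the study, with DESeq2 size factors computed separately for every time point and then 1 common factor for each time from the spike-ins (34 ERCC with a mean above 50). Genes passing filterByExpr were fitted with edgeR 4.0.16 (glmQLFTest, Benjamini-Hochberg over all genes, threshold 0.05) in R 4.3.3. DESeq2 1.42.0 and limma 3.58.1 served as alternatives. RPKM was computed from total counts and exonic length. Half-lives came from a line through ln(normalized count + 1); ratios of members used counts + 0.5. Windows and gene symbols are from Gencode M21 on GRCm38, taking per gene the protein-coding transcript with the longest 3′UTR. The fits were tested on simulated data.

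Same-numbered libraries of the clones at the same day and time deviated together (correlations 0.116 to 0.843 in 23 of 23 pairs), so paired fits are printed for comparisons between clones. Between days, 13 of 23 pairs deviated together (correlation above 0.1), all of them with actinomycin D. The mock pairs all had negative correlations, so the main fits do not pair days. Members, lists and tests were chosen with earlier results of these data known. Genes named are the 7 members, at most 4 called genes per list with the largest change, the 5 mRNAs nearest to Pim3 in binding and the 5 genes most like Pim3 and Myc over groups. List genes quoted for binding were chosen after their values were seen.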

Additional observations from a re-analysis of the deposited data

Results flagged for a closer look

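The responses of members that differed between groups are gathered here, with no explanation weighed. The mock-level response to 4OHT differed between the clones (clone 7E minus clone 5F, edgeR with Benjamini-Hochberg adjustment) for Mycl, by -0.54 log2 (SE 0.14, adjusted p = 0.015). In the fit paired by replicate number within day and time it also differed for Myc by -0.25, Pim3 by -0.19, Pim1 by -0.13 and Mycn by 0.18. In the same kind of fit the decay slope at day 0 differed for Pim1 by 0.11, Mycn by 0.089 and Max by 0.042 log2 per h, slower in clone 7E. Groups of 3 libraries were too small to test for single libraries far from the others.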

How the results depend on the processing

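Of 910 alternative values for the members, 865 kept direction and side of the threshold, 14 lost and 21 gained the call and 10 turned in direction; 66 more changed sign with neither value past the threshold. Of 224 alternative half-lives 57 moved by more than the SE. The causes were not tested, except that fits leaving out samples hold fewer libraries. The binding shares have no replicates. Mycl, Myc and Pim2 had the lowest mean counts over all libraries (293, 562 and 660). At 360 min Myc went down to 53 counts, in replicate 3 of clone 7E at day 4, a library that stood apart.

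Turned in direction: scaled by TMM without spike-ins, slopes were positive for Mycl (0.027), Pim2 (0.032), Skiv2l (0.069) and Aven (0.11) in clone 5F and for Mycl (0.025), Pim2 (0.037) and Skiv2l (0.047) in clone 7E. Without the mock libraries Mycl in clone 7E had a slope of 0.070 and a half-life of -859 min, that is no loss. With each library's own spike-ins the 4OHT response in clone 7E was -0.73 for Mycn, -0.89 for Pim1, -0.96 for Pim2 and -0.81 for Igf2bp1, and its difference between the clones -0.85 for Mycn and -0.97 for Pim2.

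Numbers of genes called also moved. Changed decay in clone 5F (34) became 19 with own spike-ins, 10 with limma, 14 without mock and 64, 111 and 113 with time points as levels. In clone 7E (153) it became 243 with TMM, 269 with DESeq2, 236 without mock, 84 without 360 min and 242, 569 and 926 with levels. The difference in the effect on decay (0) became 1 with own spike-ins, 4 with DESeq2, 5 without mock, 4 without the 6 libraries that stood apart and 491 in the fit paired within day and time. Decay between the clones (7) became 2 with own spike-ins, 32 with DESeq2, 3 without a filter, 23 without mock, 1 without 360 min, 17 without the 6 libraries, 23, 30 and 339 with levels and 1771 paired. With own spike-ins the mock response in clone 7E (6551) became 14974 and its difference between the clones (2056) 14372, and 4151 paired. Genes that fell became 5368 with TMM and 9573 without mock in clone 5F (14471), and 4963 with TMM in clone 7E (14457). The Pim3 half-life (61.1 min) was 99.0 min without mock and 35.9 min from the first 120 min, and without mock that of Mycl in clone 5F went from 326 to 5172 min.

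With a replicate block by number alone, the counts were 25 and 121 for changed decay in clones 5F and 7E, 0 for its difference, 7 for decay between the clones, 2951 and 6012 for the mock response, 1929 for its difference, 8108 for the mock level between the clones, and 14358 and 14368 for genes that fell. Pim3 in clone 5F lost its mock call (adjusted p = 0.066, edgeR). These numbers do not pair days in the mock libraries.

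Leaving out each replicate gave 2 to 4 and 26 to 50 genes with changed decay in clones 5F and 7E, 0 to 0 for its difference and for decay between the clones, 1857 to 4399 and 4320 to 5949 for the mock response, 753 to 1446 for its difference, 4694 to 6084 between the clones, 13506 to 13698 and 13982 to 14020 for genes that fell, 32 to 34 of the member ratios and 60.4 to 61.5 min for Pim3.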
